A study of Mus musculus with 33 samples.

Results

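Gene expression in Six2 knockout kidneys was compared with that in wild-type kidneys of the mouse at embryonic day 11.5 (E11.5) by RNA sequencing, across all genes and above all among genes that are not usual kidney markers. The comparison holds 11 of the series' 33 libraries: 5 from whole kidneys of embryos labelled Six2 knockout and 6 from whole kidneys of embryos labelled wild type, chosen by their labelled genotype and age. The knockouts were 4 females and 1 male and the wild types 4 females and 2 males. Each genotype was sequenced in 2 batches, which are the replicate numbers of the titles: wild-type replicates 1 to 3 and knockout replicates 1 to 3 in batch 1, and wild-type replicates 4 to 6 and knockout replicates 4 and 5 in batch 2. The other E11.5 libraries, from 5 embryos labelled heterozygous, were in the same model. They helped to estimate the spread and the sex and batch terms, and they entered the filter and the scaling. The labels do not name the allele or strain, nor say whether the kidneys of an embryo were pooled, and p-values measure the spread between these libraries.

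Six2 encodes a homeodomain transcription factor of the cap mesenchyme, the cells around the ureteric bud tips that give rise to all nephrons. It holds these progenitors in a self-renewing state, and mice without it form nephron vesicles too early and use up their progenitors. At E11.5 the ureteric bud has just entered the metanephric mesenchyme, so a whole kidney at this stage is a mixture of bud, cap mesenchyme, stroma, vessels and neighbouring tissue. In such bulk samples fewer cells of a type and less RNA per cell cannot be told apart.

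Total counts ran from 13.44 to 21.7 in the wild-type and from 10.82 to 18.17 in the knockout libraries, in units of 1e+06. Levels are given as CPM, counts per 1e+06 counts after TMM scaling of the library sizes, and differences as log2 fold changes of knockout over wild type with their standard errors (SE). For single genes the wild-type level is given as the lowest, the median and the highest of 6 libraries, and the knockout level as replicates 1 to 5 in order. A CPM of 0 means that no count was found. The limit that a count of 0 allows, 3 counts, was 0.139 to 0.286 CPM in these libraries, for counting error only. The share of counts on ribosomal RNA rows differed with genotype in batch 1: 20.5% to 26.6% in the wild-type libraries and 0.879%, 12.5% and 1.52% in the knockouts, against at most 0.47% in batch 2. After the means of batch and sex were removed, the first principal component (32.5% of the variance) put the 5 knockouts at 19.8 to 27.9 and the 6 wild types at -33.7 to -7.46.

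Six2 itself followed the labels. It was at 19.1, 23.1 and 32.7 CPM in wild-type kidneys and at 0.655, 0.286, 0.484, 0.441 and 0.457 CPM in the knockouts. No knockout library came near the lowest wild-type library, and the knockout level was 1.96% of wild type (95% confidence interval 1.48 to 2.6; log2 fold change -5.67 ± 0.18, adjusted p = 6.4e-11). An exact two-sided permutation test of log2 CPM gave p = 0.00216, the smallest that the 462 splits of 11 libraries allow. Gm29418, a long intergenic noncoding RNA on chromosome 17 at 85796218 to 85824044 (mm10), is annotated 108 kb from Six2 (85684277 to 85688274) on the same strand. It was at 2.63, 3.38 and 5.23 CPM in wild type and at 0.353, 0.382, 0.121, 0 and 0.0571 CPM in the knockouts, a fall of 4.44 ± 0.43 (SE) on the log2 scale (adjusted p = 1.02e-05). Among the 42 genes tested within 5 Mb of Six2, it was the single gene called lower and 0 were called higher, with a median log2 fold change of -0.06.

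Of 16141 genes tested, 1038 (6.43%) were called, that is, differed at an adjusted p under 0.05: 440 (2.73%) were higher and 598 (3.7%) lower in the knockout. Outside the kidney lists (nephron progenitor, early nephron, ureteric bud, stroma, podocyte and tubule genes) 982 genes were called, 421 higher and 561 lower. The kidney lists held 56 of the calls, among 148 of their genes tested. Changes of 2-fold or more were seen for 90 higher and 134 lower genes. Of the called genes, 458 had no overlap between the 5 knockout and the 6 wild-type libraries. The test itself favours genes whose groups are apart, and the count over all genes tested is not given here. A lack of overlap in a called gene therefore describes its values and adds no separate evidence. The median log2 fold change over all genes tested was close to 0, at -0.003.

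The batches, which share no library, were also fitted apart. Over all 15771 genes with a value in each, 9461 (60%) had the same sign in both. Batch 1 alone called 265 genes and batch 2 alone 168, in fits with fewer libraries. Of 264 genes called in batch 1 alone, 252 (95.5%) had the same sign in batch 2, and of 167 called in batch 2 alone, 163 (97.6%) had it in batch 1. The genes called with all libraries were chosen on both batches, which largely fixes that their signs match (1026 of 1026 with a value in each). Without the 4 wild-type and knockout libraries above 5% ribosomal RNA counts, which are the 3 wild-type libraries of batch 1 and knockout replicate 2, and without the heterozygous libraries above it, 349 genes were called, 325 of them also called with all libraries. This fit held no wild-type library of batch 1, so it compared the genotypes mainly within batch 2. A call lost in it cannot be put down to ribosomal RNA rather than to batch or to fewer libraries. When the prefix of the titles replaced batch in the model, 492 were called, 288 of them shared. Prefix G6 is carried by 3 knockouts and by no other genotype. Without knockout replicate 5 the count was 623, and 478 genes were called in all 11 fits that left out 1 library.

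Some genes named below lost their calls in these fits. The fit without the batch term called 439 genes, and its losses are not listed by name here. In that fit 113 of the genes named by the rule or added later were weaker and 174 the same. Besides those marked at their place, the fit without the libraries of high ribosomal RNA lost Car9, Ccr1, Cd84, Chrna6, Ctss, Dusp4, Eno1, Foxc2, Fstl4, Gdf11, H2-DMb2, Hoxa10, Htr3a, Id2, Insig1, Irf8, Kitl, Lef1, Notum, Pfkl, Ptprr, Rarres1, Ret, Ror2, Rpph1, Rspo3, Sema3d, Sema5b, Slc4a4, Slit2, Spred2, Spry2, Srebf2, Tnnt3, Tshr, Vegfc and Wnt9b. The fit with the title prefix lost Ccr1, Dusp4, Etv4, Foxc2, Fstl4, Gata3, Gdf11, Gpx6, H2-DMb2, Hoxa10, Hoxb2, Hoxb3, Hoxb6, Hoxb8, Htr3a, Id2, Id4, Kcnj16, Lef1, Lgr6, Lmx1b, Lpl, Nbl1, Plin2, Pparg, Ptprr, Rarres1, Ret, Rgs5, Rpph1, Rspo3, Sema3c, Sema3f, Slc4a4, Slit2, Spry2, Tfrc, Tshr, Uncx and Vegfc.

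**Figure D1:**
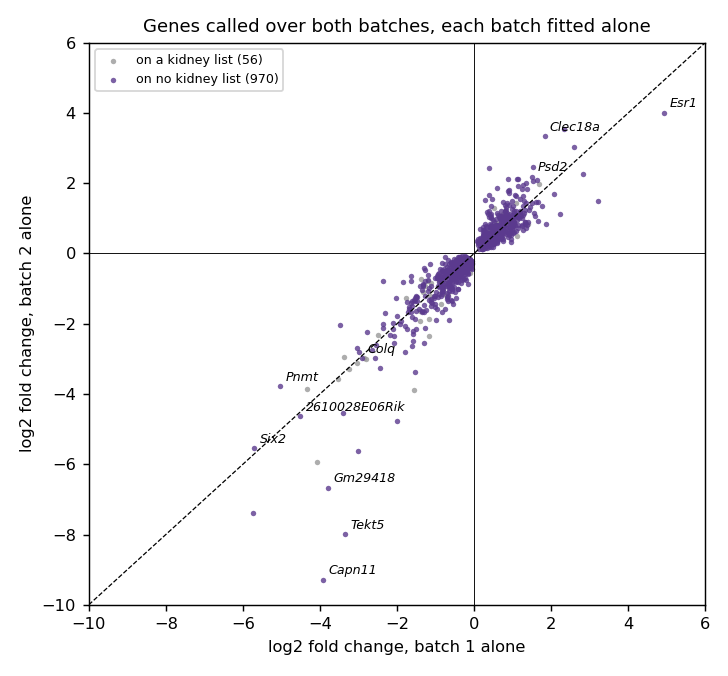
Log2 fold change of knockout over wild type in batch 1 alone (x axis) and in batch 2 alone (y axis) for the 1026 called genes with a value in each batch; grey points are on a kidney list and purple points on none, and the dashed line marks equal values. All points lie in the lower left or the upper right quadrant, which the choice of genes over both batches largely fixes, and Six2 is at -5.71 and -5.55 and Esr1 at 4.93 and 4.01.

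The largest falls outside the kidney lists took several genes from a few CPM to close to 0. Pnmt, the enzyme that makes adrenaline from noradrenaline, was at 1.46, 2.98 and 3.48 CPM in wild type and at 0.0504, 0.191, 0, 0.0552 and 0.343 CPM in the knockouts (log2 fold change -4.38 ± 0.47, adjusted p = 2.89e-05). Crhr1, a receptor for corticotropin-releasing hormone, was at 0.35, 1.49 and 1.67 and at 0.0504, 0, 0.242, 0 and 0.0571 CPM (-4.03 ± 0.62, adjusted p = 0.000844). In both genes every knockout library was below every wild-type library. Colq, the collagen tail that anchors acetylcholinesterase at the synapse, was at 1.74, 1.99 and 2.35 against 0.202, 0.191, 0.424, 0.331 and 0.171 CPM (-2.93 ± 0.30, adjusted p = 2.11e-05). Cpa1, a digestive carboxypeptidase of the pancreas, was at 2.22, 4.34 and 5.27 against 0.454, 0.668, 0.303, 0.607 and 0.685 CPM (-2.85 ± 0.26, adjusted p = 7.16e-06). Cdhr1, a photoreceptor cadherin, was at 2.81, 4.97 and 6.88 against 0.756, 1.05, 0.363, 0.11 and 1.08 CPM (-2.89 ± 0.37, adjusted p = 0.000153). These 3 genes also had no overlap between the groups.

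Tekt5, a tektin of sperm flagella, was at 0.35, 1.43 and 1.98 CPM in wild type and at 0, 0.191, 0.121, 0 and 0 CPM in the knockouts (-4.59 ± 0.78, adjusted p = 0.0019). Aldh3b2, an aldehyde dehydrogenase, was at 0.811, 1 and 5.51 against 0.101, 0.0954, 0.0606, 0.11 and 0.0571 CPM (-4.21 ± 0.68, adjusted p = 0.00125), with wild-type replicate 6 far above the other wild-type libraries. Capn11, a calpain known from testis, was at 0.0668, 3.52 and 5.42 against 0.202, 0, 0.484, 0 and 0 CPM (-4.55 ± 0.85, adjusted p = 0.00372). Its groups overlapped, since 1 wild-type library was as low as the knockouts, and its call was lost with the title prefix as a block (adjusted p = 0.0938). Fgf1, a fibroblast growth factor that binds all FGF receptors, was at 2.16, 2.87 and 5.14 against 0.504, 0.477, 0.303, 0.386 and 0.571 CPM (-2.80 ± 0.31, adjusted p = 3.64e-05). Sowahb, an ankyrin repeat protein, was at 4.79, 6.71 and 12.2 against 1.06, 1.05, 1.21, 0.386 and 1.37 CPM (-2.83 ± 0.30, adjusted p = 2.86e-05). Galnt15, which starts mucin-type O-glycans, was at 1.69, 2.75 and 3.75 against 0.454, 0.382, 0.484, 0.441 and 0.514 CPM (-2.55 ± 0.33, adjusted p = 0.00017), and Sypl2, a synaptophysin-like protein, at 2.74, 5.25 and 8.19 against 0.857, 0.668, 0.727, 0.772 and 1.43 CPM (-2.54 ± 0.29, adjusted p = 5.04e-05). The groups of these last 4 genes did not overlap. Lamp5, a lysosomal membrane protein of neurons, fell by 2.82 ± 0.59 (adjusted p = 0.00847), a call that was lost without the libraries of high ribosomal RNA (adjusted p = 0.149) and with the title prefix (adjusted p = 0.0977).

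**Figure D2:**
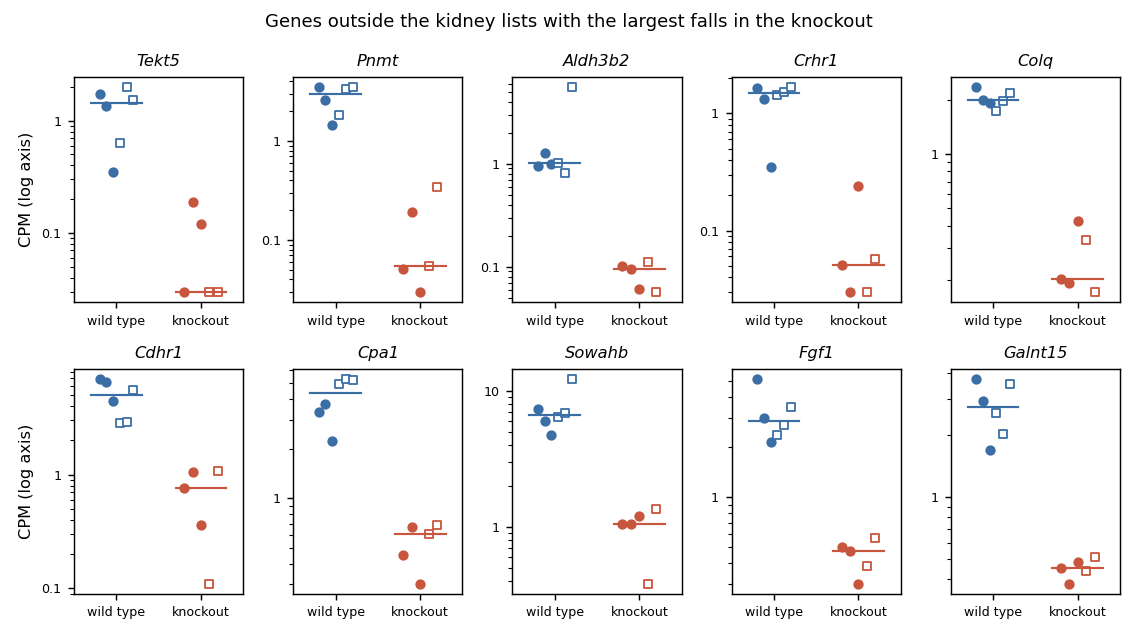
CPM (log axis) of 10 of the genes outside the kidney lists with the largest falls, in 6 wild-type (blue) and 5 knockout (red) libraries; filled circles are batch 1, open squares batch 2 and lines the group medians, and values under 0.03 are drawn at 0.03. In the 10 genes drawn the knockout libraries lie below the wild-type libraries, with 0 to 0.343 against 1.46 to 3.48 CPM for Pnmt. Capn11, also among the largest falls (log2 fold change -4.55), had overlapping groups and is not drawn.

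Several of these genes were close to silent in the knockouts. By a rule chosen after the values were seen, under 0.5 CPM in all 5 knockouts and a wild-type median of at least 1 CPM, 14 called genes were found, while the opposite pattern was met by 1 gene, Slc32a1. Besides Pnmt, Crhr1, Colq, Tekt5, Capn11, Aldh3b2, Lamp5, Gm29418 and the ureteric keratin gene Krt23, they included 2610028E06Rik, Gm20485, Sstr3 and Rtn4rl2. The long noncoding RNA 2610028E06Rik (chromosome 4) was at 2.13, 3.28 and 4.88 CPM in wild type and 0.101, 0.191, 0.182, 0 and 0.229 CPM in the knockouts (-4.58 ± 0.39, adjusted p = 3.11e-06). The somatostatin receptor gene Sstr3 was at 0.936, 1.23 and 1.32 against 0.454, 0.382, 0.303, 0.11 and 0.114 CPM (-2.19 ± 0.34, adjusted p = 0.000958), and Rtn4rl2, a receptor for myelin-associated inhibitors of axon growth, at 0.869, 1.06 and 1.34 against 0.454, 0.382, 0.121, 0.0552 and 0.343 CPM (-1.96 ± 0.39, adjusted p = 0.00644). The groups of these 3 genes did not overlap. The call of Rtn4rl2 was lost without the libraries of high ribosomal RNA (adjusted p = 0.0711), and those of Sstr3 and Rtn4rl2 with the title prefix (adjusted p = 0.0604 and 0.119).

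Sequences near gene starts were read for forms of the motif bound by Six2 and its relatives, to show what stands before genes that moved. RefSeq (GRCm38.p6) gave windows from 250 bases before to 50 bases after the start for 11637 tested genes. The core TGATAC, on either strand, was in a window of 3.73% of these genes, in 4.22% of 332 genes called higher, 4.41% of 454 called lower and 6.19% of 97 called lower by 2-fold or more. The composite GAAACCTGA was found for 0.464% of all these genes and for 0.904% and 0.22% of those called higher and lower. For comparison, the general homeobox core TAATTA was found for 3.25% of all and for 3.31% and 2.86% of those called higher and lower. Among the 97 genes called lower by 2-fold or more it was found for 9 (9.28%). The sites below lie before a RefSeq start of genes changed by 2-fold or more, and the list is not complete. The core was in a window of 6 of the 97 genes called lower by 2-fold or more. Of these, only the sites of Traf1, Gpx6, Uncx, Robo2 and Lmx1b are printed. A gene can have several RefSeq starts, and these are not always the gene start of the annotation used elsewhere here. Those of Robo2 and Lmx1b lie 681 and 0.587 kb before it. Those of Akr1c19, Uncx and Gpx6 lie 5.04, 0.404 and 0.078 kb after it. Each is printed 5′ to 3′ on the gene's strand with the motif, or its reverse complement, in capitals. A match is a description of the letters and not evidence of binding.
2310015B20Rik, composite, chr10:70204594-70204652, + strand: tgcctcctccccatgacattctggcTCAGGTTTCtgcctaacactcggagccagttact
Traf1, core, chr2:34961987-34962022, - strand: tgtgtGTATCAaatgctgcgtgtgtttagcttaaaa
Gpx6, core, chr13:21312071-21312126, + strand: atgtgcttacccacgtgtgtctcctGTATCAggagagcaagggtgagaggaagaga
Uncx, core, chr5:139543709-139543764, + strand: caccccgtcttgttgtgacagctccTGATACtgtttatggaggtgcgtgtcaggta
Robo2, core, chr16:75092867-75092922, - strand: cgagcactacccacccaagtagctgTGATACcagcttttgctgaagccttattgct
Lmx1b, core, chr2:33641166-33641221, - strand: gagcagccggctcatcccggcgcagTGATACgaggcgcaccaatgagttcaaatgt
Cd84, core, chr1:171839570-171839625, + strand: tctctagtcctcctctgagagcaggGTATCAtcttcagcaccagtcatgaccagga
Akr1c19, core, chr13:4233490-4233544, + strand: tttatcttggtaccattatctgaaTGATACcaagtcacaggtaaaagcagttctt
The first 6 genes were lower in the knockout, by log2 fold changes of -3.51 ± 0.45, -2.99 ± 0.25, -1.76 ± 0.25, -1.62 ± 0.21, -1.20 ± 0.11 and -1.15 ± 0.21. The last 2 were higher, Cd84, a leukocyte receptor, by 1.30 ± 0.24 and Akr1c19, an aldo-keto reductase, by 1.53 ± 0.20.

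Esr1, the estrogen receptor alpha gene, had the largest rise outside the kidney lists. It was at 0.0507, 0.163 and 0.968 CPM in wild type and at 8.07, 5.53, 2.91, 4.96 and 7.31 CPM in the knockouts (4.22 ± 0.40, adjusted p = 8.83e-06), and averaged 12.9 CPM in the heterozygous embryos. The labels do not name the allele, and whether the counts came from the Esr1 gene or from other sequence that matches it was not tested. Slc32a1, the vesicular transporter of GABA and glycine, was at 0, 0.184 and 0.463 against 1.16, 0.954, 1.64, 2.37 and 2.74 CPM (3.08 ± 0.47, adjusted p = 0.000781). Gm14204, a noncoding RNA that starts 44 bases away in the opposite direction (chromosome 2), was at 0.348, 0.469 and 1.34 against 3.02, 2.48, 3.33, 5.74 and 5.83 CPM (2.79 ± 0.27, adjusted p = 9.87e-06). The groups did not overlap in any of these 3 genes. Without the libraries of high ribosomal RNA the adjusted p of Slc32a1 was 0.0527. Psd2, an Arf guanine nucleotide exchange factor of the nervous system, was at 5.84, 7.51 and 11.6 against 22.6, 16.7, 20.6, 39.6 and 37.6 CPM (1.82 ± 0.19, adjusted p = 2.49e-05). Unc5d, a netrin receptor, was at 1.27, 2 and 2.79 against 4.74, 5.72, 6.6, 5.74 and 6.51 CPM (1.57 ± 0.18, adjusted p = 3.92e-05), and the long noncoding RNA Rmst, known from neural progenitors, at 4.01, 5.52 and 7.14 against 17.1, 13.9, 11.9, 15.2 and 16.8 CPM (1.47 ± 0.19, adjusted p = 0.000209). In these genes too every knockout library was above every wild-type library.

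Fst, which encodes the activin antagonist follistatin, was at 4.5, 9.36 and 12.1 CPM in wild type and at 28.7, 25.3, 25.1, 26.8 and 28.5 CPM in the knockouts (1.58 ± 0.18, adjusted p = 4.68e-05). Its knockout libraries were close together and all were more than 2-fold above the highest wild-type library. Car4, a membrane-bound carbonic anhydrase, was at 0.88, 1.23 and 1.75 against 3.53, 3.53, 3.57, 3.25 and 6.51 CPM (1.73 ± 0.22, adjusted p = 0.000146). Clec18a, a C-type lectin, was at 0.409, 0.696 and 0.871 against 1.41, 1.91, 3.21, 8.11 and 6.4 CPM (2.66 ± 0.32, adjusted p = 8.53e-05), higher in both knockouts of batch 2 than in the 3 of batch 1. The neuropeptide receptor gene Npy4r was at 0.234, 0.363 and 0.629 against 1.06, 1.14, 0.969, 1.49 and 1.49 CPM (1.80 ± 0.23, adjusted p = 0.000146). Gjb1, the gap junction protein connexin 32, was at 0.174, 0.312 and 0.532 against 1.36, 1.43, 2.24, 1.32 and 0.857 CPM (2.03 ± 0.39, adjusted p = 0.0048, and 0.125 without the libraries of high ribosomal RNA). Adamts13, the protease that cuts von Willebrand factor, was at 0.117, 0.165 and 0.523 against 0.958, 0.763, 0.787, 0.883 and 1.71 CPM (2.16 ± 0.39, adjusted p = 0.00315, and 0.103 with the title prefix). The groups did not overlap in any of these genes. Weaker calls were those of the nicotinic receptor subunit Chrna6 (1.84 ± 0.37), the tyrosine phosphatase Ptprr (1.77 ± 0.36), the thyrotropin receptor Tshr (1.63 ± 0.33) and the serotonin receptor subunit Htr3a (1.62 ± 0.31). They were lost without knockout replicate 5, with adjusted p values of 0.0646, 0.0602, 0.0765 and 0.0515, and that of Rarres1 (1.92 ± 0.44), a retinoid-induced gene, was lost without knockout replicate 4 (0.0555).

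**Figure D3:**
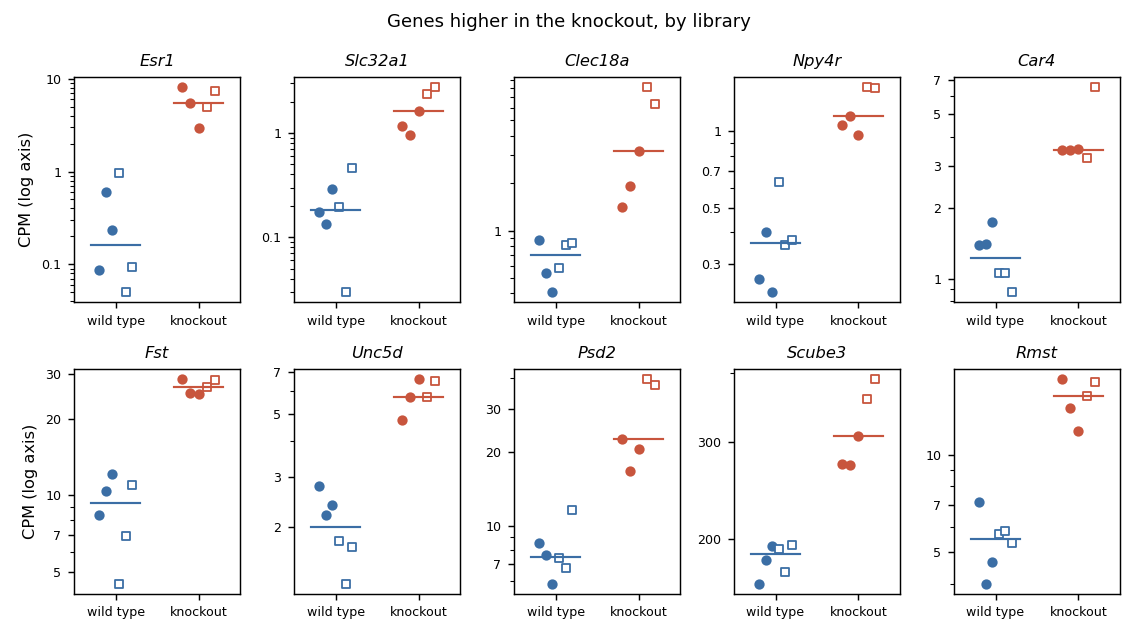
CPM (log axis) of 10 genes higher in the knockout, in 6 wild-type (blue) and 5 knockout (red) libraries; filled circles are batch 1, open squares batch 2 and lines the group medians, and values under 0.03 are drawn at 0.03. All knockout libraries lie above all wild-type libraries in each gene, with 25.1 to 28.7 against 4.5 to 12.1 CPM for Fst.

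Among abundant genes the differences were smaller. Scube3, a secreted glycoprotein with EGF-like repeats, rose from 166, 188 and 194 CPM to 274, 272, 307, 359.5 and 390.3 CPM (0.82 ± 0.07, adjusted p = 1.74e-06), and Ptpn13, a large tyrosine phosphatase, from 182, 234 and 252 to 325, 272, 303, 339 and 364 CPM (0.54 ± 0.06, adjusted p = 2.81e-05). Sulf2, which trims sulfate from heparan sulfate chains, fell from 371, 401 and 438 to 294, 285, 318, 269 and 286 CPM (-0.47 ± 0.05, adjusted p = 3.22e-05). Hmcn1, the matrix protein hemicentin, fell from 299.7, 366 and 426 to 247, 234, 267, 235 and 207 CPM (-0.63 ± 0.08, adjusted p = 0.000128) and the surface glycoprotein gene Cd24a from 484, 505 and 555 to 433, 388, 400.2, 350.3 and 384 CPM (-0.40 ± 0.05, adjusted p = 0.000224). In these 5 genes the groups did not overlap. Some calls of abundant genes rested on the setting or on 1 library. Ltbp1, which binds latent TGF-beta, and the ephrin receptor Epha7 rose by 0.62 ± 0.11 and 0.60 ± 0.09, with adjusted p values of 0.0688 for Ltbp1 without the libraries of high ribosomal RNA and 0.556 for Epha7 with the title prefix. The pericyte gene Rgs5 (0.55 ± 0.11) and Rpph1, the RNA of ribonuclease P (0.69 ± 0.15), lost their calls without knockout replicate 5 (adjusted p = 0.0788 and 0.107).

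A stricter set was formed by the 104 called genes that were also called in each batch alone, 17 higher and 87 lower. Of these, 16 and 68 were on no kidney list. Espn, an actin-bundling protein of stereocilia and microvilli, was at a log2 fold change of -2.31 ± 0.18 (3.62 to 6.68 against 20.5 to 34.6 CPM). Moxd1, a relative of dopamine beta-hydroxylase, was at -1.70 ± 0.17, the neurotrophin receptor Ngfr at -1.56 ± 0.18, and Shisa2, which holds back Wnt and FGF receptors, at -1.52 ± 0.13. Has2, the main hyaluronan synthase of the embryo, was at 70.4, 96.3 and 131 CPM in wild type and at 44.6, 32.7, 32.3, 26.1 and 27.3 CPM in the knockouts (-1.64 ± 0.14, adjusted p = 3.45e-06). Bcl2, the anti-apoptotic protein whose loss is known to give cystic kidneys in mice, was at 94.9, 106 and 146 against 72.2, 69.1, 62.7, 56.1 and 56.8 CPM (-0.86 ± 0.08, adjusted p = 7.81e-06). The groups overlapped in none of these 6 genes. Also lower were the trophoblast glycoprotein gene Tpbg (-1.08 ± 0.08), the adhesion molecule Alcam (-1.20 ± 0.16), the secreted hormone stanniocalcin 1 gene Stc1 (-1.02 ± 0.14), the synaptotagmin Syt7 (-0.70 ± 0.07) and Calcrl, the receptor for adrenomedullin (-0.85 ± 0.09). On the higher side stood Pik3r1, the regulatory subunit of PI3 kinase (0.73 ± 0.06), G6pc2, a glucose-6-phosphatase known from pancreatic islets (0.92 ± 0.09), the protocadherin Pcdh19 (0.95 ± 0.11), the ubiquitin ligase gene Pdzrn3 (0.63 ± 0.07), the anticoagulant protein S gene Pros1 (0.46 ± 0.07), the tubulin deacetylase Hdac6 (0.42 ± 0.05) and the pro-apoptotic gene Bmf (0.41 ± 0.06). Among the genes of this stricter set named here, Calcrl, Stc1, Hdac6 and Bmf lost their calls without the batch term. These genes were chosen to be named after their values were seen.

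Genes of growth factor signalling were next read by list. On the list of FGF and receptor tyrosine kinase feedback genes 12 of 35 tested genes fell and 2 rose. The share called was 40%, beside 6.43% of all genes, and the list's median was -0.24. Beside the ligand Fgf1, the falls included the receptor Fgfr1 (-0.52 ± 0.07) and the transcription factors Etv4 and Etv5. The feedback inhibitors Spry2 (-0.45 ± 0.09), Spry4 (-0.93 ± 0.18), Spred2 (-0.50 ± 0.10), Dusp4 (-0.71 ± 0.16) and Il17rd (-0.31 ± 0.05) fell too. Etv4 and Etv5 are also on the kidney list of the ureteric bud tip, and the falling ligands Fgf20 and Fgf9 on that of nephron progenitors. Etv5 was at 43.8, 51.6 and 59.3 CPM in wild type and 23.8, 22.9, 21.8, 23.3 and 35.7 CPM in the knockouts (-1.0 ± 0.13, adjusted p = 0.000181), and its groups did not overlap. The risers were the ligands Kitl (0.44 ± 0.09), whose sign turned with the title prefix, and Vegfc (0.41 ± 0.10). The call of Spry4 was lost without the libraries of high ribosomal RNA (adjusted p = 0.163), and on the list as a whole 6 genes were called without them and 8 with the title prefix. Without knockout replicate 5 Dusp4 and Vegfc were lost (adjusted p = 0.0672 and 0.116), Vegfc also in 5 other fits that left out 1 library.

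On the Wnt list 4 of 26 genes fell and 2 rose (23.1% called, beside 6.43% of all genes). The falls included R-spondins, ligands that keep Wnt receptors at the surface. They were Rspo1, at 32.6, 44.9 and 58.3 CPM in wild type and 22.6, 15, 11.8, 13.3 and 15.1 CPM in the knockouts (-1.53 ± 0.16, adjusted p = 2.14e-05), Rspo3 (-0.66 ± 0.12), the R-spondin receptor Lgr6 (-0.83 ± 0.19) and the Wnt5a receptor Ror2 (-0.31 ± 0.09, adjusted p = 0.04999, with a sign that turned when the title prefix was the block). The groups of Rspo1 did not overlap. Lgr6 and Ror2 were lost without knockout replicate 5 (adjusted p = 0.0687 and 0.266), Lgr6 in 1 other such fit and Ror2 in 7 others. The risers were Lef1, a Wnt effector, and Notum, a Wnt inhibitor (0.61 ± 0.11 and 1.13 ± 0.23). In the BMP and activin list 5 of 34 genes rose and 3 fell (23.5%). Beside Fst and Ltbp1, the inhibitors of differentiation Id4 and Id2 rose. Id4 was at 10.1, 14.2 and 19.7 against 31.2, 30.7, 29.1, 22.1 and 26.3 CPM (0.90 ± 0.11, adjusted p = 8.77e-05), with no overlap, and Id2 changed by 0.32 ± 0.07. The ligand Gdf11 rose by 0.18 ± 0.05, a call that 10 of the 11 fits without 1 library lost (adjusted p of up to 0.256). The ligand Bmp7 and the antagonist genes Nbl1 (-0.61 ± 0.15) and Fstl4 (-1.48 ± 0.39) fell. Without knockout replicate 5 the calls of Id2, Nbl1 and Fstl4 were lost (adjusted p = 0.104, 0.122 and 0.154), those of Nbl1 and Fstl4 also in 4 and 6 other such fits. Among the Notch, Hedgehog and interferon lists 1 of 19, 2 of 13 and 1 of 20 genes were called, against 6.43% of all genes. Myc, the growth-promoting transcription factor, was at 38.3, 46.1 and 52.8 against 22.6, 21.7, 22.4, 22.4 and 29.8 CPM (-0.91 ± 0.10, adjusted p = 3.92e-05), and the groups did not overlap.

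Of 36 Hox genes tested, 7 fell and 1 rose (22.2% called, beside 6.43% of all genes). Of the 7 falls, 6 belong to the 9 tested genes of the HoxB cluster on chromosome 11. Over all genes 3.7% were called lower. The HoxB median was -0.51, against -0.05 for HoxA, -0.25 for HoxC and 0.14 for HoxD. In batches 1 and 2 apart the medians were -0.57 and -0.28 for HoxB, -0.49 and -0.05 for HoxC, -0.23 and -0.00057 for HoxA, and 0.07 and 0.19 for HoxD. The split by cluster was made after the values were seen. Hoxb1, the most anterior of them, was at 2.47, 4.8 and 6.36 CPM in wild type and 1.81, 0.382, 0.424, 0.166 and 0.914 CPM in the knockouts (-2.61 ± 0.39, adjusted p = 0.000662), with no overlap. Hoxb9 (-0.55 ± 0.09), Hoxb2 (-0.66 ± 0.15) and Hoxb6 (-0.44 ± 0.10) followed, and Hoxb3 and Hoxb8 were at -0.37 ± 0.10 and -0.55 ± 0.15. Without the libraries of high ribosomal RNA, a fit with fewer libraries, 1 Hox gene was called. The log2 fold changes were then -2.44 for Hoxb1 (adjusted p = 0.0625) and -0.58 for Hoxb9 (0.0512). Hoxb2 was lost without knockout replicate 4 or 5 (adjusted p of up to 0.0635) and Hoxb6 without knockout replicate 2, 3 or 4 (up to 0.0605). Of the 11 fits without 1 library, 7 lost Hoxb3 and 9 lost Hoxb8 (up to 0.103 and 0.109).

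Outside the Hox clusters, 5 of 85 homeobox genes rose and 5 fell (11.8%, beside 6.43% of all genes). Of the 5 falls, Meox2, Meox1 and Uncx are also on the nephron progenitor list. Msx2, a target of BMP signalling in limb and neural crest, was at 1.13, 1.8 and 3.85 CPM in wild type and 6.86, 6.49, 5.09, 5.46 and 5.25 CPM in the knockouts (1.30 ± 0.25, adjusted p = 0.00491). Lbx2 was at 3.05, 3.28 and 6.44 against 1.36, 1.81, 1.51, 1.93 and 1.31 CPM (-1.35 ± 0.23, adjusted p = 0.00172). Both had groups that did not overlap, and their calls were lost, for Msx2 without the libraries of high ribosomal RNA (adjusted p = 0.0631) and for Lbx2 with the title prefix (0.0943). Among forkhead genes Foxd2, a kidney mesenchyme factor, fell from 43.7, 46.8 and 52 to 31.9, 25.9, 29.9, 25.6 and 23.7 CPM (-0.82 ± 0.09, adjusted p = 2.83e-05), also with no overlap. Lmx1b, which podocytes and limbs need, was at -1.15 ± 0.21 (adjusted p = 0.00334, and 0.0668 without the libraries of high ribosomal RNA). Among 339 Zfp zinc finger genes 1 rose and 8 fell, a share of 2.65%.

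Of 47 axon guidance genes 5 rose and 5 fell, 21.3% beside 6.43% of all genes. The semaphorin Sema4g was at 23, 28.2 and 43.6 CPM in wild type and 18.4, 18.9, 20.7, 14.9 and 14.8 CPM in the knockouts (-0.81 ± 0.09, adjusted p = 2.68e-05), with no overlap. Sema3d (-0.79 ± 0.14) and Sema3f (-0.39 ± 0.07) fell with it and Sema3c (0.51 ± 0.06), Sema5b (0.70 ± 0.15) and the repellent Slit2 (0.24 ± 0.06) rose. Of 31 tight junction and polarity genes 5 rose and 2 fell (22.6%). Cldn10, a claudin that forms ion channels between cells, was at 0.668, 1.03 and 1.83 CPM in wild type and 5.09, 4, 4.06, 4.25 and 4.63 CPM in the knockouts (1.97 ± 0.24, adjusted p = 8.53e-05), and Cldn9 went the other way, from 8.76, 11.6 and 15 to 2.32, 1.91, 2.54, 2.48 and 3.77 CPM (-2.13 ± 0.15, adjusted p = 6.27e-07). Both claudins separated the groups fully. Sema5b and Slit2 were lost without knockout replicate 5 (adjusted p = 0.0646 and 0.121), Slit2 also in 5 other fits that left out 1 library.

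Of 22 sarcomere and Z-disc genes 4 fell and 2 rose (27.3% called, beside 6.43% of all genes). Actn3, a Z-disc actinin of fast muscle, was at 36.7, 62.9 and 85.9 CPM in wild type and 15.3, 14.2, 17.1, 23.2 and 29.9 CPM in the knockouts (-1.67 ± 0.14, adjusted p = 3.11e-06). Tpm2, beta-tropomyosin, was at 101, 144 and 190.5 against 47.2, 52.4, 39.8, 59 and 50.9 CPM (-1.55 ± 0.10, adjusted p = 2.79e-07). The intermediate filament gene Des fell by 0.83 ± 0.10. No knockout library reached the wild-type range of Actn3 or Tpm2. The list of skeletal muscle and cartilage markers had 1 riser, Tnnt3, and 1 fall, Des, among 13 genes. Tnnt3, a fast-muscle troponin T, had overlapping groups (0.57 ± 0.14), and its call was lost in 2 fits that left out 1 library (adjusted p of up to 0.0825). The list's summed level was 738.9 to 1137 CPM in wild-type and 721.5 to 1029 CPM in knockout libraries.

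Ion channel and transporter genes were called at 8.78% to 12.1%, beside 6.43% of all genes. Of 67 potassium channel genes 5 rose and 2 fell (10.4%), and of 33 sodium and calcium channel genes 4 rose and 0 fell. Scn4b, a sodium channel beta subunit, was at 0.958, 1.28 and 1.6 CPM in wild type and 3.13, 3.15, 3.21, 2.54 and 5.65 CPM in the knockouts (1.48 ± 0.19, adjusted p = 0.000186), and the inward rectifier gene Kcnj16 at 1.6, 1.71 and 2.92 against 5.85, 3.53, 4.36, 4.85 and 4.46 CPM (1.25 ± 0.20, adjusted p = 0.00119). Their groups did not overlap. Without the libraries of high ribosomal RNA edgeR called 0 of the potassium channel genes (16 at an unadjusted p under 0.05), and Kcnj16 had an adjusted p of 0.102. Among 262 solute carrier genes 9 rose and 14 fell (8.78%), including the bicarbonate transporter Slc4a4 (0.58 ± 0.10) and the iron exporter Slc40a1 (-0.84 ± 0.15).

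On the glycolysis and hypoxia list 17 of 27 genes fell and 0 rose (63%, beside 6.43% of all genes), with medians of -0.27 in batch 1 and -0.36 in batch 2. Hk2, a hexokinase, was at 85.5, 91.8 and 114 CPM in wild type and 69.2, 50.1, 54.3, 56.3 and 54.5 CPM in the knockouts (-0.73 ± 0.11, adjusted p = 0.000597), with no overlap. The falls included the glucose transporter Slc2a1 (-0.50 ± 0.11), the lactate dehydrogenase Ldha (-0.63 ± 0.12), Pfkl (-0.51 ± 0.10), Eno1 (-0.44 ± 0.09) and the hypoxia target Car9 (-1.04 ± 0.22). With the title prefix as a block edgeR called 0 of the 27 (11 at an unadjusted p under 0.05), without the libraries of high ribosomal RNA it called 4 (16 at an unadjusted p under 0.05), and Slc2a1 was lost without knockout replicate 5 (adjusted p = 0.112). The list's median was -0.33 with all libraries and -0.37 without those of high ribosomal RNA. The ribosomal RNA share of each library is plotted beside the list's level, and its part in the result was not tested. Over the same libraries edgeR called 0 of 24 oxidative phosphorylation genes, 0 of 45 complex I (Nduf) genes, 0 of 78 cytosolic and 0 of 76 mitochondrial ribosomal protein genes. At an unadjusted p under 0.05 there were 1, 2, 16 and 4 of them, and DESeq2 called 0, 0, 5 and 1. The medians of these lists were -0.02, 0.01, -0.09 and -0.02.

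Of 24 cholesterol genes 5 fell and 0 rose (20.8%, beside 6.43% of all genes). Among them were the squalene epoxidase gene Sqle (-0.28 ± 0.06), Insig1, which holds the pathway's regulators in the endoplasmic reticulum (-0.22 ± 0.06), and Srebf2, the master regulator of the pathway (-0.19 ± 0.05). These 3 changes were small, and each call was lost without knockout replicate 5, among other libraries, the adjusted p then being 0.125, 0.177 and 0.11. With the title prefix edgeR called 0 of the 24, with 7 at an unadjusted p under 0.05. Of 29 genes of fatty acid and lipid handling 5 rose and 3 fell (27.6%). Cd36, a fatty acid importer, was at 1.67, 3.83 and 5.98 CPM in wild type and 7.01, 14.1, 11.2, 12.1 and 9.82 CPM in the knockouts (1.49 ± 0.28, adjusted p = 0.00417), and the lipid droplet coat gene Plin2 was at 58.2, 74.8 and 103 against 80.3, 94.1, 92, 134 and 124 CPM (0.47 ± 0.08, adjusted p = 0.00145). The groups of Cd36 did not overlap, while those of Plin2 did. Apoe (0.74 ± 0.15), Lpl (0.39 ± 0.09) and Pparg (0.94 ± 0.22) rose with them, and the calls of Cd36, Apoe, Lpl and Pparg were lost without the libraries of high ribosomal RNA (adjusted p = 0.163, 0.202, 0.194 and 0.208). Lpl was also lost without knockout replicate 4 or 5 (adjusted p of up to 0.0787) and Pparg without knockout replicate 3 or 4 (up to 0.0719). Cd36, Apoe, Lpl and Pparg are also expressed by macrophages, whose marker levels are given next.

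Of 18 macrophage markers tested 13 rose and 0 fell (72.2% called, beside 6.43% of all genes, median 0.91). The list's summed level was 107 to 222.1 CPM in wild-type and 155.2 to 348.4 CPM in knockout libraries. Cx3cr1, a chemokine receptor of macrophages, was at 10.8, 14.4 and 20.4 CPM in wild type and 18.7, 27.3, 25.6, 32.1 and 38.3 CPM in the knockouts (0.94 ± 0.14, adjusted p = 0.000599). C1qc, a subunit of complement C1q, was at 6.19, 8.93 and 17 against 10.5, 15.6, 14.1, 32.9 and 29.2 CPM (1.03 ± 0.20, adjusted p = 0.00452). The groups overlapped in both genes. The transcription factor gene Irf8 (0.80 ± 0.15), the phagocyte receptor Csf1r (0.96 ± 0.21) and the chemokine receptor Ccr1 (1.1 ± 0.24) rose too. Without the libraries of high ribosomal RNA edgeR called 0 of the 18 markers, with 13 at an unadjusted p under 0.05 and a median of 0.75, and Ccr1 was lost without knockout replicate 5 (adjusted p = 0.138). The batch medians were 0.83 and 0.85.

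Of 12 class II MHC genes and regulators, which present antigen on macrophages and dendritic cells, 4 fell and 2 rose (50% called, beside 6.43% of all genes). The risers were the protease gene Ctss and H2-DMb2. The call of Ctss was lost without knockout replicate 4 (adjusted p = 0.0527). Ciita, their master transactivator, was at 3.04, 3.92 and 5.65 CPM in wild type and 0.907, 1.43, 0.908, 1.27 and 1.31 CPM in the knockouts (-1.87 ± 0.24, adjusted p = 0.000181), and H2-Eb1 at 0.992, 2.06 and 3.06 against 0.504, 0.382, 0.666, 0.662 and 0.286 CPM (-1.96 ± 0.32, adjusted p = 0.00135). Both had groups that did not overlap. H2-Aa had 76 counts over the 6 wild-type libraries, 4 to 21 in each, and 0 counts in all 5 knockouts, a level at least 19.8-fold lower if 3 counts over the knockout group are taken as the limit. The calls of H2-Aa and H2-Ab1 (-0.98 ± 0.20) were lost without knockout replicate 5 (adjusted p = 0.0558 and 0.0659), and those of H2-Aa, H2-Ab1 and H2-Eb1 with the title prefix (adjusted p = 0.15, 0.372 and 0.106). The invariant chain gene Cd74 was at -1.05 ± 0.35 (adjusted p = 0.0895) and did not pass. H2-DMb2 was called higher (1.04 ± 0.29, adjusted p = 0.0447), a call lost in 7 of the 11 fits that left out 1 library. These genes have near-identical relatives whose reads the counting could have split.

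**Figure D4:**
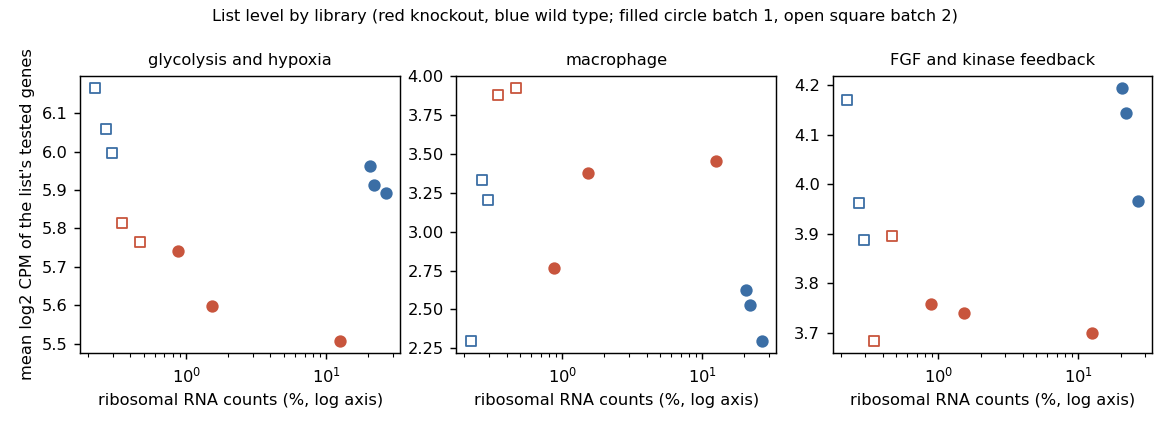
Mean log2 CPM of the tested genes of 3 lists (y axis) against the share of counts on ribosomal RNA rows in percent (x axis, log scale), 1 point per library (red knockout, blue wild type, filled circles batch 1, open squares batch 2). The knockouts lie below all wild-type libraries for glycolysis and hypoxia (5.51 to 5.81 against 5.89 to 6.16), while for macrophage genes (2.76 to 3.92 against 2.3 to 3.33) and FGF and kinase feedback genes (3.69 to 3.9 against 3.89 to 4.19) the groups overlap.

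Markers of other cell types that a whole kidney at this stage could hold were called at shares from 0 to the 72.2% of the macrophage list, beside 6.43% of all genes. Of endothelial markers edgeR called 0 of 20, of adrenal and gonad markers 0 of 9 and of liver and gut markers 0 of 4. At an unadjusted p under 0.05 there were 1, 3 and 1 of them, and DESeq2 called 1, 1 and 0. Of erythroid markers 1 of 15 fell (Tfrc) and of coelomic mesothelium markers 1 of 10 (Alcam). Of 12 smooth muscle markers 1 rose (Rgs5), and of 10 Wolffian and Mullerian duct markers 2 rose, Wnt9b and Gata3, and 1 fell, Hoxa10 (30%). The summed levels were 568.6 to 1222 CPM in wild-type and 877.8 to 1132 CPM in knockout libraries for endothelium, and 40.49 to 97.01 and 71.1 to 125.7 CPM for adrenal and gonad. On the neuron, sympathetic chain and glia list 2 of 21 rose, including Ret, and 1 fell (14.3%), with a median of 0.5 and summed levels of 224.2 to 546.9 and 439.6 to 582.4 CPM. The fall was that of Dcx, doublecortin of young neurons, at 13.8, 21.3 and 35 CPM in wild type and 3.88, 6.29, 5.75, 4.52 and 3.88 CPM in the knockouts (-2.28 ± 0.35, adjusted p = 0.000727), with no overlap. On the list of synapse and neuronal adhesion genes 1 of 42 was called (2.38%), the riser Psd2. The calls of Ret, Wnt9b, Gata3 and Hoxa10 were lost in 9, 6, 4 and 6 of the 11 fits without 1 library (adjusted p of up to 0.225, 0.0701, 0.134 and 0.141). Ret is also on the kidney list of the ureteric bud tip, and Wnt9b and Gata3 on that of the bud trunk and collecting duct. Beside the neuronal genes that rose, such as Slc32a1 and Rmst, the part of these cells in the result was not tested. Of 13 somite and paraxial mesoderm markers 5 fell and 1 rose (46.2%), and 3 of the falls, Meox1, Uncx and Foxc2, are also on a kidney list. The call of Foxc2 was lost in 8 of the 11 fits without 1 library (adjusted p of up to 0.0946). On the nephron progenitor list 24 of 37 genes fell and 0 rose. Its summed level was 4038 to 5163 CPM in wild type and 2528 to 3065 CPM in the knockouts. The list was chosen with earlier results of these data known, so its fall is no check of the tissue. The 28 cell cycle genes had 1 call and the 28 imprinted genes 1, against 6.43% over all genes.

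**Figure D5:**
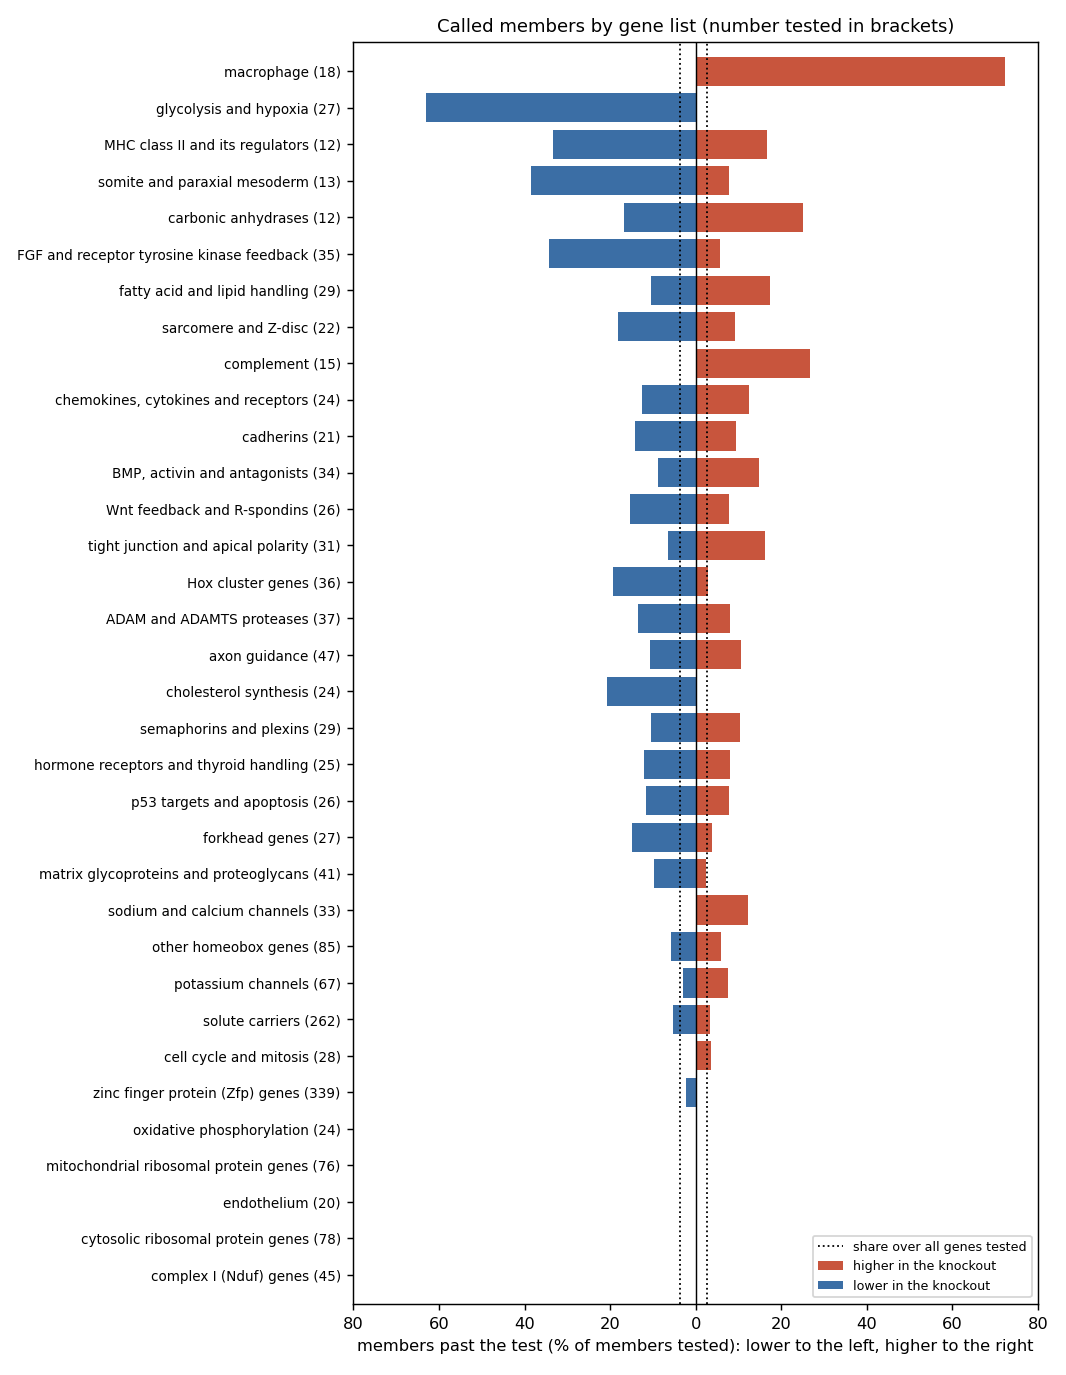
Share of each list's tested genes that were called higher (red, to the right) or lower (blue, to the left) in the knockout, in percent, for lists of at least 10 tested genes outside the kidney lists that had at least 4 calls, and for 6 lists with fewer; dotted lines mark the shares over all genes, 2.73% higher and 3.7% lower. Macrophage genes reach 72.2% on the right and glycolysis genes 63% on the left, while ribosomal protein and complex I genes have no bar.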

How the data were processed

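RNA from snap-frozen whole kidneys was made into Illumina libraries, per the labels' protocols. The authors deposited raw read counts per gene symbol for each library, with a column of gene lengths that was not used. STAR 2.4.0h1, featureCounts 1.4.6 and build mm10 are named, per the submitters' processing notes. Strand, annotation and handling of multiply mapped reads are not given in the sources used here, so reads of overlapping genes, such as Car9 and Gm12454, Ciita and Dexi, Has2 and Has2os or Slc32a1 and Gm14205, cannot be told apart. Of the columns, 0 had no sample. Positions came from GENCODE vM21.

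The main test was edgeR's (version 4.0.16, with R 4.3.3 and limma 3.58.1): genes kept by filterByExpr with genotype as group (minimum count 10, minimum total 15), TMM (trimmed mean of M values) scaling, and quasi-likelihood F tests, adjusted by Benjamini and Hochberg over all 16141 genes at 0.05, with no fold threshold. The model held genotype, sex and batch over 16 embryos at E11.5, with 10 residual degrees of freedom. For 1 heterozygous embryo both batches held a library, and the 2 were summed and given their own batch level. The batch is the replicate number of the titles, which the labels give as a batch, so it is the block that pairs the libraries. No 2 libraries agreed within counting noise (smallest chi-square per degree of freedom over 55 pairs 3.59). The procedure was tested on simulated counts with 200 changed genes. Alternatives used DESeq2 1.42.0 and the settings named in the closing section.

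Named genes were Six2, the 15 largest changes each way outside the kidney lists (at least 1 CPM, same sign in each batch), the 8 largest CPM gains and losses, 3 noncoding RNAs each way and up to 4 called genes per list, 220 in all. A further 68 were added after their values were seen. Not all of them are reported here. The comparison, lists and named-gene rule were chosen with earlier results of these data known, so no list's direction is independent evidence.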

Additional observations from a re-analysis of the deposited data

Results flagged for a closer look

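Within each genotype a library was looked for whose CPM stood apart from the others of its group, by a gap larger than Dixon's 95% limit, in the genes whose values are given by library. Chance alone flags about 1 in 20 groups, and 14 of 162 groups were found. Knockout replicate 5 stood apart in 6 of them, always above the other 4 knockouts: Adamts13 at 1.71 CPM (0.763 to 0.958 in the others), Car4 at 6.51 (3.25 to 3.57), Sypl2 at 1.43 (0.668 to 0.857), Etv5 at 35.7 (21.8 to 23.8), Myc at 29.8 (21.7 to 22.6) and Scn4b at 5.65 (2.54 to 3.21). It is the single male knockout and was run in batch 2.

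Wild-type replicate 6 was above the other wild types in 5 genes: Aldh3b2 at 5.51 CPM (0.811 to 1.27), Sowahb at 12.2 (4.79 to 7.4), Eno1 at 560 (373 to 442), Hk2 at 114 (85.6 to 93.2) and Gm14204 at 1.34 (0.348 to 0.584). Wild-type replicate 3 was low for Crhr1, at 0.35 CPM (1.34 to 1.67), and high for Kcnj16, at 2.92 (1.6 to 1.9). Knockout replicate 3 was high for Crhr1, at 0.242 CPM (0 to 0.0571). In each of these genes the direction of the difference between genotypes was the same without the library that stood apart.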

How the results depend on the processing

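Six2 kept its call and direction under all 24 alternatives. The count of called genes, 1038, was 439 without the batch term, that is, with no replicate block, 265 in batch 1 alone, 168 in batch 2 alone, 349 without libraries above 5% ribosomal RNA counts and 492 with the title prefix as a block. The genes called higher, 440, numbered 172, 69, 48, 86 and 144 under these settings, and those called lower, 598, numbered 267, 196, 120, 263 and 348. Leaving out 1 library gave 623 (without knockout replicate 5) to 1078 (without wild-type replicate 3) called, 242 to 487 higher and 381 to 591 lower; higher calls were also fewer by over 1.5 times without knockout replicates 3 (280) and 4 (288). Other settings stayed within 1.5 times: 1322 with DESeq2, 1058 with its size factors, 1175 with no filter on low counts, 836 with knockout and wild-type libraries only, 1022 without the sex term and 876 with the ribosomal share as a covariate. Chosen after seeing the data, coding the embryo run in both batches midway gave 1144 and removing ribosomal RNA rows before scaling 1044. Of the genes named by the rule or added later, 7 changed sign, all with the title prefix: Cltc (-0.11, adjusted p = 0.618), Pkm (0.00185, 0.996), Mcm3 (0.0406, 0.835), Snrpn (-0.268, 0.481), Tspan12 (-0.0483, 0.925), Ror2 (0.0862, 0.763) and Kitl (-0.152, 0.782). The smaller fits have fewer libraries, and the fit without libraries of high ribosomal RNA held no wild-type library of batch 1. For the prefix and the batch term the cause was not tested, and prefix and genotype cannot be fully told apart because prefix G6 holds knockouts only. Depth limits genes near 3 counts per library.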

Other observations

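Called genes lay next to each other in a few places. By the mm10 positions of the genes tested, 10 runs of at least 3 neighbouring genes were called in the same direction, 9 lower and 1 higher. The longest was 5 genes on chromosome 2, from 34849734 to 35178822: Psmd5 (-0.34), Cutal (-3.51), Phf19 (-2.95), Traf1 (-2.99) and Cntrl (-0.41), in log2 fold changes, so that the 3 in the middle fell by far more than those at the ends. On chromosome 11, from 98358368 to 98388181, Pnmt (-4.38) stood beside Tcap, a Z-disc protein (-1.60), and Stard3 (-0.27). On chromosome 5 Sowahb (-2.83) lay between Shroom3 (-0.66) and Sept11 (-0.30), and on chromosome 9 Ripply2, a somite boundary gene (-2.17), between Snap91, a clathrin adaptor (-1.46), and Cyb5r4 (-0.42). Ripply2 was at 0.35, 0.63 and 0.741 CPM in wild type and 0.151, 0.0954, 0.0606, 0 and 0.286 CPM in the knockouts, and Snap91 at 26.7, 35.4 and 66.2 against 16.3, 18, 16.4, 12 and 12.1 CPM. The groups overlapped in neither gene, and the call of Ripply2 was lost without the libraries of high ribosomal RNA (adjusted p = 0.165) and with the title prefix (0.11). The run of risers was C1qb, C1qc and C1qa on chromosome 4. H2-Ab1, H2-Aa and H2-Eb1 formed another run on chromosome 17. How many such runs an unrelated order of genes would give was not tested.

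By chromosome, the share of tested genes that were called ran from 5.05% on chromosome 17, which carries Six2, to 10.1% on chromosome 19 and 10.3% on chromosome 14, with 0 of 5 on chromosome Y and 0 of 11 on the mitochondrial genome. On chromosome 11, 22 genes rose and 62 fell, and on the X chromosome 26 rose and 13 fell. By kind of gene, 7.09% of protein-coding, 2.14% of antisense and 1.45% of long intergenic noncoding genes were called, and 0 of 114 small nucleolar RNA genes. The levels of these kinds of gene differ, and whether that sets the shares was not tested.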
